A study of Homo sapiens with 6 samples.

Results

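Most SREBP control genes act on how much of the sterol-regulated transcription factors SREBP-1 and SREBP-2 reaches the nucleus. STARD4 and MYLIP, grouped with them here, act on sterol transfer and on lipoprotein receptors. The 8 genes described here are SREBF1, SREBF2, SCAP, INSIG1, INSIG2, MBTPS1, STARD4 and MYLIP, taken by Ensembl identifier from 60612 gene identifiers in the count files. All 8 were found and all 8 passed the filter on low counts that 17854 genes passed. RNA sequencing covered 6 libraries of SKBR3, an established HER2-positive breast cancer cell line labelled as mammary gland epithelium. The 3 parental libraries came from untreated cells, and the 3 trastuzumab libraries from cells of the same line kept for 30 weeks under rising concentrations of trastuzumab, a therapeutic antibody against HER2, to study secondary resistance. The labels do not say whether the antibody was present at harvest, whether the treated cells were a clone or a pool, or whether the replicates were grown apart, so that the p-values measure the spread between these libraries only, which may be technical.

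SREBPs are made as membrane proteins of the endoplasmic reticulum and travel to the Golgi bound to the escort protein SCAP. When sterols are plentiful, SCAP is held back by the INSIG proteins. When sterols are scarce, the complex leaves in COPII vesicles, the site-1 protease encoded by MBTPS1 and then the site-2 protease cut the SREBP, and the freed domain enters the nucleus and switches on genes of cholesterol and fatty acid synthesis and of lipoprotein uptake. INSIG1, SREBF2 and STARD4 are themselves among the known targets of this pathway, a list not meant to be complete. MYLIP, also called IDOL, is a target of the oxysterol receptors called LXR and marks lipoprotein receptors for degradation. SREBP activity is set mainly by cleavage, which RNA levels do not measure.

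Total depth was 71015138 to 82857810 counts per library. Levels are given as CPM, the counts relative to the scaled library total, as mean ± SD over n = 3 libraries per group. Fold changes are log2 values of trastuzumab minus parental with their standard error (SE), and a gene is called changed at a Benjamini-Hochberg adjusted p below 0.05 over all tested genes in edgeR's quasi-likelihood test. Of all tested genes, 49.3% were called. Fold changes followed base composition: the median was -0.49 among the fifth of protein-coding genes with the lowest transcript GC content and 0.37 among the fifth with the highest. Each member is therefore also given from a second fit, called the corrected fit, that removes from every library a smooth trend on GC content and exonic length, along with any real change that follows them. In that fit 37.3% of genes were called. Of the luminal mammary markers, 8 of 8 reached 1 CPM in at least 1 library, with a summed level of 12282 to 13713 CPM in parental and 12426 to 13718 CPM in trastuzumab libraries, although the oestrogen receptor gene ESR1 stood at only 1.43 and 1.02 CPM. The 5 markers of HER2-amplified tumours summed to 9103 to 9727 CPM and 13147 to 13741 CPM. The basal list summed to 7.33 to 8.46 and 5.27 to 26.2 CPM, and the fibroblast list to 9.20 to 19.2 and 6.07 to 10.9 CPM. In trastuzumab replicates 1 to 3, KRT5 of the basal list stood at 0.614, 9.07 and 8.27 CPM. KRT14 stood at 0.0571, 7.53 and 7.72 CPM, so that replicate 1 lay apart from replicates 2 and 3 in these genes. The endothelial list summed to 28.6 to 31.7 CPM in parental and 79.0 to 86.0 CPM in trastuzumab libraries, most of it CDH5 (means of 26.4 and 79.3 CPM), with VWF at 3.75 and 3.50 CPM and PECAM1, KDR and TEK at or below 0.176 CPM on average. The leukocyte list summed to 14.8 to 17.3 CPM and 42.7 to 49.1 CPM, most of it CD68 (14.8 and 43.0 CPM), with PTPRC at 0.181 and 0.132 CPM. The adipocyte list summed to at most 3.74 CPM and the hepatocyte list to at most 0.125 CPM in any library. The part of these markers in the results below was not tested.

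Cells kept under trastuzumab held far less RNA of INSIG1 and STARD4 and moderately less of both SREBP genes. INSIG1, which retains SCAP, fell 6.39-fold and STARD4, a soluble sterol carrier, fell 11.2-fold, whereas SREBF2 fell 1.51-fold and SREBF1 fell 1.32-fold. The escort gene SCAP rose 1.29-fold, and INSIG2 and MBTPS1 fell 1.30-fold and 1.10-fold, but none of these 3 changes was called in the corrected fit. MYLIP did not pass the test. In all, 6 of the 8 members fell, 1 rose and 1 did not pass, against 25.4% of all tested genes lower and 23.9% higher. The corrected fit left 4 lower (19.0% of all genes were lower in it) and none higher (18.3% of all genes). The parental and trastuzumab libraries did not overlap in CPM for 7 members, 6 of them lower, while 57.5% of all tested genes did not overlap (29.2% lower and 28.3% higher). The median log2 fold change of the 8 members was -0.39, beside -0.0057 for all tested genes, and the corrected values were -0.40 and -0.012.

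**Figure D1:**
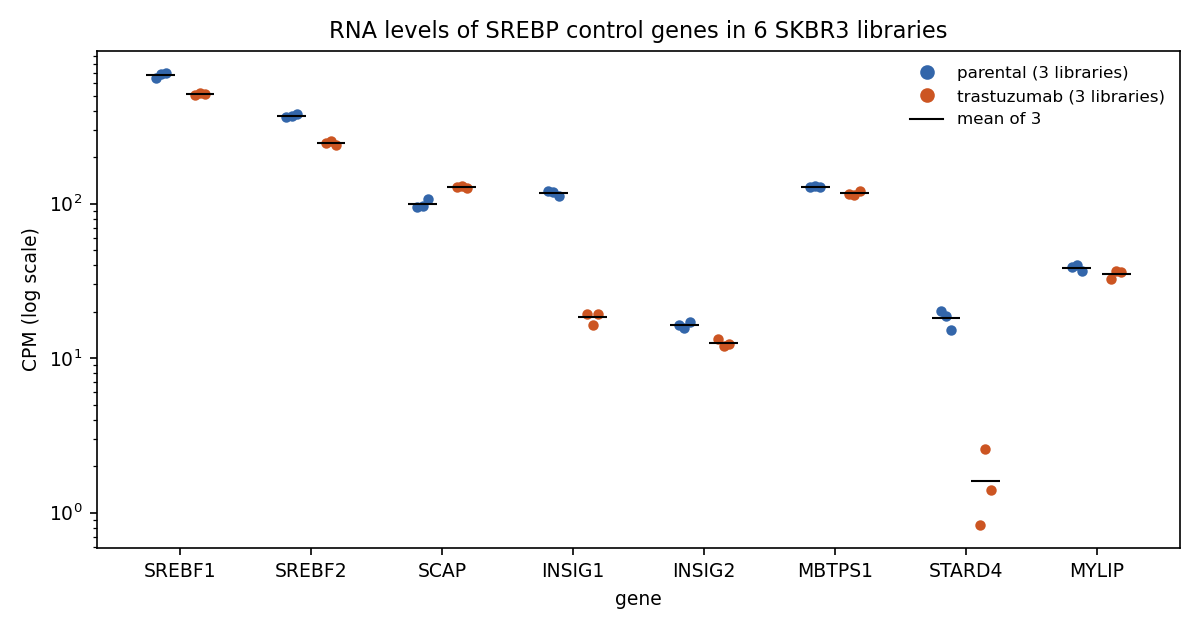
CPM of each gene (log axis) in the 3 parental and 3 trastuzumab libraries, with 1 point per library and a line at the mean of 3. INSIG1 (117 against 18.4 CPM) and STARD4 (18.1 against 1.6 CPM) are the genes whose groups lie farthest apart, and MYLIP is the one whose groups overlap.

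The promoters of SREBF2, INSIG1 and STARD4 are shown because these 3 members, named above as targets of the pathway, fell in both fits. SREBF1 also fell in both fits. Only 1 window of SREBF1 was searched, not shown, and it held no match to the letters marked here. SREBF1 has alternative starts, and sequence before any other start was not searched. Each line holds the 250 bases before the gene's start as given by RefSeq on GRCh38.p14, 5′ to 3′ on the gene's own strand, and all 8 members matched that table, INSIG2 with 2 starts. Capitals mark letters matching TCACNCCAC (the core of a sterol response element), CACGTG (an E-box) or CCAAT (the box bound by NF-Y, a partner of SREBPs), each searched on both strands.
SREBF2 (chr22:41832855-41833104, plus strand): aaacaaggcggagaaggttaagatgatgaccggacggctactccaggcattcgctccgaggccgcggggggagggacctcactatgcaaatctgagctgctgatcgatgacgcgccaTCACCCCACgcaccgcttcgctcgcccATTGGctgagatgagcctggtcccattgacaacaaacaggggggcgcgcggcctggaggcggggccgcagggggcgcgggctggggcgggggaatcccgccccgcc
INSIG1 (chr7:155297628-155297877, plus strand): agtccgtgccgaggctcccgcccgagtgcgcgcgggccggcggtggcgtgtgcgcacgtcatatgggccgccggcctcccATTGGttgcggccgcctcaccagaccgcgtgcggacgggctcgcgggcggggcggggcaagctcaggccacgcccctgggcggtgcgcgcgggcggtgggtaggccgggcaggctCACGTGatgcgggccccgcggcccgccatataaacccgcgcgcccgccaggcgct
STARD4 (chr5:111512536-111512785, minus strand): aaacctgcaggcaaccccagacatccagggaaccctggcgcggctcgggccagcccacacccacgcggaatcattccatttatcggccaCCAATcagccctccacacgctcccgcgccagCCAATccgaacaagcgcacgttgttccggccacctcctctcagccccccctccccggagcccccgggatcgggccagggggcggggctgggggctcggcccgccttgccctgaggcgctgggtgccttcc

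SREBF2 held the single TCACNCCAC match of all member windows, 133 to 125 bases before the start, with a CCAAT box on the opposite strand 106 to 102 bases before it. Such a match occurred in 0.852% of the 15843 windows of tested protein-coding genes. INSIG1 held CACGTG at 55 to 50 bases before the start, a motif found in 8.18% of those windows and, among the members, also in SCAP. CCAAT occurred in INSIG1, SREBF2, STARD4 and MYLIP, with 2 copies each in STARD4 and MYLIP, and in 32.9% of windows of tested protein-coding genes. The GC box GGGCGG, bound by Sp1, lay in every member window except that of MBTPS1, with up to 5 copies in INSIG1 of which a pair overlap by 1 base, and in 62.0% of those windows. The 1 window searched for SREBF1 and the windows of INSIG2 held only the GC box, and MBTPS1 none of the 4 motifs. These are matches of letters in a short window and not measured binding.

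The genes of the SREBP factors were the most abundant members, and both fell. SREBF1 encodes the SREBP-1 isoforms, which favour fatty acid synthesis. It lies on hg38 chromosome 17 at 17810399 to 17837002 on the minus strand (ENSG00000072310). Its level was 647, 694 and 697 CPM in parental replicates 1 to 3 and 506, 522 and 514 CPM in trastuzumab replicates 1 to 3. Every trastuzumab library lay below every parental one, and the 3 trastuzumab libraries differed from each other by less than the parental ones did (coefficients of variation of 1.57% and 4.14%). This was a log2 fold change of -0.40 ± 0.043 (SE, edgeR adjusted p = 8.01e-07), and 26.8% of tested genes had a lower one. In the corrected fit the fall was larger, at -0.64 ± 0.033 (adjusted p = 2.83e-10), which placed it above 10.4% of genes. SREBF1 has a transcript GC content of 63.5%, in the fifth of protein-coding genes with the highest GC content, whose median log2 fold change was 0.37. Counts per gene add up the transcripts from its alternative starts, so the isoforms cannot be told apart here.

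SREBF2 encodes SREBP-2, which favours cholesterol synthesis and lipoprotein uptake, and it spans chromosome 22 from 41833079 to 41907308 on the plus strand (ENSG00000198911). Parental replicates 1 to 3 held 361, 371 and 381 CPM and trastuzumab replicates 1 to 3 held 246, 254 and 240 CPM. The groups were far apart, with the highest trastuzumab library more than 100 CPM under the lowest parental one. SREBF2 had a log2 fold change of -0.59 ± 0.043 (edgeR adjusted p = 1.49e-08), and the corrected one -0.77 ± 0.036 (adjusted p = 1.16e-10). Lower values were found for 17.8% of tested genes, or 7.78% in the corrected fit.

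Per unit of transcript length, on the FPKM scale, SREBF1 stood above SREBF2 in each library. The FPKM ratio of SREBF1 to SREBF2 was 1.64, 1.71 and 1.68 in parental replicates 1 to 3 and 1.89, 1.88 and 1.96 in trastuzumab replicates 1 to 3. The groups did not overlap, and the mean log2 ratio was 0.19 higher under trastuzumab (exact two-sided permutation test, p = 0.1, adjusted p = 0.1 over 3 ratios), where 0.1 is the smallest p that 3 against 3 libraries can give.

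Both factor genes carry a miR-33 gene in an intron and share exonic sequence with another gene on the opposite strand. The mature 5p products are shown because the host genes fell together and the products share 1 seed (bases 2 to 8, in capitals), known to target the cholesterol exporter ABCA1.
hsa-miR-33a-5p, within SREBF2: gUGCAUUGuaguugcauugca
hsa-miR-33b-5p, within SREBF1: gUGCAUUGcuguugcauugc
These libraries do not measure mature microRNAs: MIR33A had 0 counts in all 6 libraries and MIR33B at most 4. A further microRNA gene within SREBF1, MIR6777, had 3 to 8 counts per library. Of the genes that lie within other members, C1orf100P1 in SCAP had at most 4 counts, ENSG00000274677 in MBTPS1 at most 14 and MIR4639 in MYLIP at most 3. The last part of SREBF1 shares 556 exonic bases with RAI1 on the other strand, a gene that rose from 96.1 to 138 CPM, and the start of SREBF2 shares 280 exonic bases with the antisense RNA SREBF2-AS1, which stood at 3.51 and 3.67 CPM. Because no source used here gives the strand setting of the counting, reads from these stretches cannot be assigned to one gene.

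RNA levels of the escort gene and of the retention genes moved in opposite directions in the uncorrected fit. SCAP, on chromosome 3 at 47413694 to 47477126 on the minus strand (ENSG00000114650), carries SREBPs to the Golgi and senses sterols itself. It was measured at 94.4, 95.9 and 107 CPM in parental replicates 1 to 3 and at 128, 129.6 and 127 CPM in trastuzumab replicates 1 to 3. All trastuzumab libraries lay above all parental ones, and parental replicate 3 was the nearest to them. SCAP had a log2 fold change of 0.37 ± 0.054 (edgeR adjusted p = 2.25e-05), but in the corrected fit the value was 0.088 ± 0.045 (adjusted p = 0.15). SCAP transcripts have a GC content of 60.9%, in the fifth of genes with the most positive median.

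INSIG1 spans 155297776 to 155310235 of chromosome 7 on the plus strand (ENSG00000186480). Its protein binds SCAP and also the rate-limiting enzyme HMG-CoA reductase when sterols are high. Parental replicates 1 to 3 held 121, 119 and 111 CPM, and trastuzumab replicates 1 to 3 held 19.4, 16.4 and 19.3 CPM. No trastuzumab library reached a level near the parental range, and both groups were tight, with coefficients of variation of 4.55% and 9.30%. For INSIG1 the log2 fold change was -2.68 ± 0.071 (edgeR adjusted p = 1.79e-13) and stayed at -2.61 ± 0.063 (adjusted p = 6.55e-14) in the corrected fit. Only 0.555% of tested genes had a lower value.

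INSIG2, the second retention protein, is the homologue whose RNA is less dependent on SREBPs, and it lies on chromosome 2 at 118088452 to 118110997 on the plus strand (ENSG00000125629). It was measured at 16.3, 15.6 and 17.2 CPM in parental replicates 1 to 3 and at 13.3, 12.1 and 12.4 CPM in trastuzumab replicates 1 to 3. The groups did not overlap, although the gap between them was small. The log2 fold change was -0.38 ± 0.095 (edgeR adjusted p = 0.00283), while the corrected one had the other sign and did not pass, at 0.068 ± 0.095 (adjusted p = 0.635). Its transcripts have the lowest GC content of the 8 members, 37.3%.

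The makeup of the INSIG RNA pool changed with the fall of INSIG1. On the FPKM scale INSIG1 and INSIG2 together went from 32.7 ± 1.5 to 7.04 ± 0.524 (SD, n = 3 each). INSIG1 made up 89.0, 89.2 and 87.5% of that sum in parental replicates 1 to 3 and 61.3, 59.5 and 62.8% in trastuzumab replicates 1 to 3, so that INSIG2 took a larger share in every trastuzumab library. The FPKM ratio of INSIG1 to INSIG2 was 7.76 ± 0.671 in parental and 1.58 ± 0.108 in trastuzumab libraries, 4.91-fold lower (exact two-sided permutation p = 0.1, adjusted p = 0.1, the smallest possible). SCAP stood at 0.435 ± 0.0459 times the summed INSIG FPKM in parental libraries and at 2.49 ± 0.214 times in trastuzumab libraries, 5.73-fold higher (exact permutation p = 0.1, adjusted p = 0.1). In parental cells INSIG RNA thus exceeded SCAP RNA in each library, and under trastuzumab SCAP RNA exceeded INSIG RNA in each. These FPKM values carry no correction for GC content. In the corrected fit INSIG1 stayed lower (log2 fold change -2.61), while SCAP (0.088) and INSIG2 (0.068) did not pass. In bulk RNA, fewer cells with a transcript and less RNA per cell cannot be told apart.

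**Figure D2:**
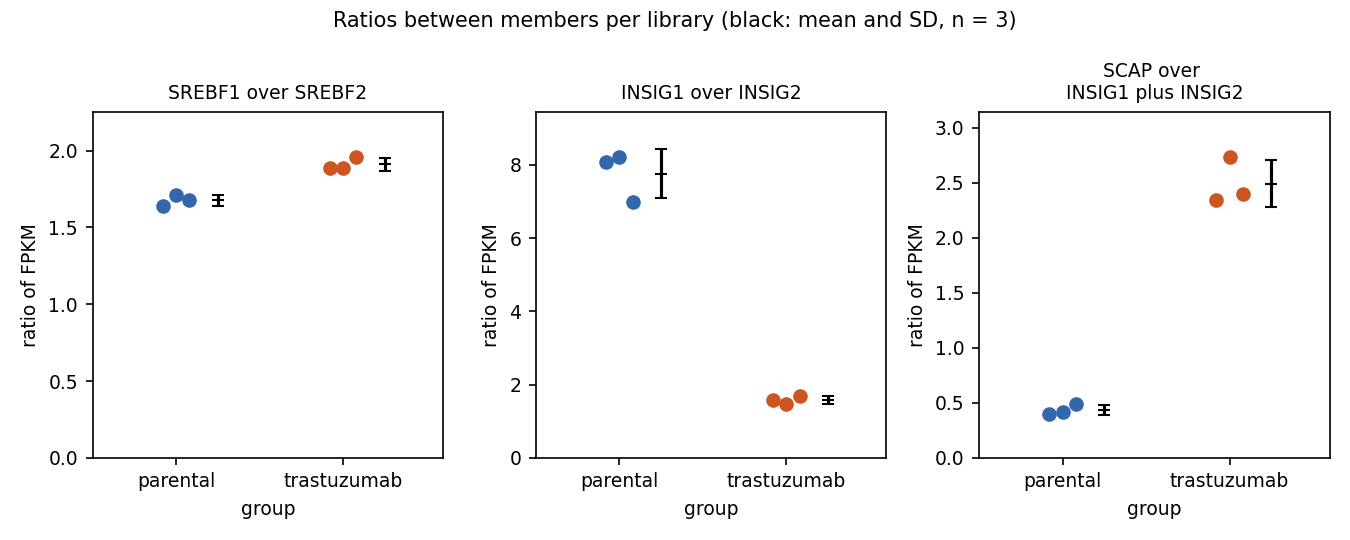
Ratios of FPKM between members in each library, without correction for GC content. Each panel has 1 point per library and the mean and SD of 3 in black, on an axis that starts at 0. The ratio of INSIG1 to INSIG2 dropped from 7.76 to 1.58 and that of SCAP to both INSIG genes went from 0.435 to 2.49, while SREBF1 over SREBF2 moved little.

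MBTPS1 encodes the site-1 protease, which makes the first cut in SREBPs, and lies on chromosome 16 at 84053761 to 84116906 on the minus strand (ENSG00000140943). Levels were 127, 130.1 and 128 CPM in parental replicates 1 to 3 and 116, 114 and 122 CPM in trastuzumab replicates 1 to 3. The groups did not overlap but lay close together. The log2 fold change of -0.13 ± 0.047 (edgeR adjusted p = 0.0263) was lost in the corrected fit (-0.047 ± 0.039, adjusted p = 0.388). It was also lost without parental replicate 2 (adjusted p = 0.09), trastuzumab replicate 1 (0.0833) or trastuzumab replicate 2 (0.105).

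STARD4, which moves cholesterol between membranes, lies on chromosome 5 at 111496033 to 111512590 on the minus strand (ENSG00000164211). Parental replicates 1 to 3 held 20.2, 18.8 and 15.3 CPM and trastuzumab replicates 1 to 3 held 0.828, 2.57 and 1.41 CPM, from 58, 207 and 113 counts. All trastuzumab libraries were far below the parental ones but differed among themselves more than for any other member, with a coefficient of variation of 55.2% in that group, against 1.20% to 9.30% for the other 7. The log2 fold change was -3.49 ± 0.45 (edgeR adjusted p = 0.00267) and the corrected one -2.99 ± 0.46 (adjusted p = 0.0079). Of all tested genes, 0.269% had a lower value. Its exons share 124 bases with the antisense RNA STARD4-AS1, which had at most 10 counts in a library.

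MYLIP, a ubiquitin ligase for lipoprotein receptors, lies on chromosome 6 at 16129125 to 16148248 on the plus strand (ENSG00000007944). It was measured at 39.1, 39.8 and 36.7 CPM in parental replicates 1 to 3 and at 32.6, 36.8 and 36.1 CPM in trastuzumab replicates 1 to 3. The groups overlapped, since trastuzumab replicate 2 reached the level of parental replicate 3. MYLIP had a log2 fold change of -0.13 ± 0.073 (edgeR adjusted p = 0.15) and the corrected one -0.15 ± 0.065 (adjusted p = 0.0778).

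**Figure D3:**
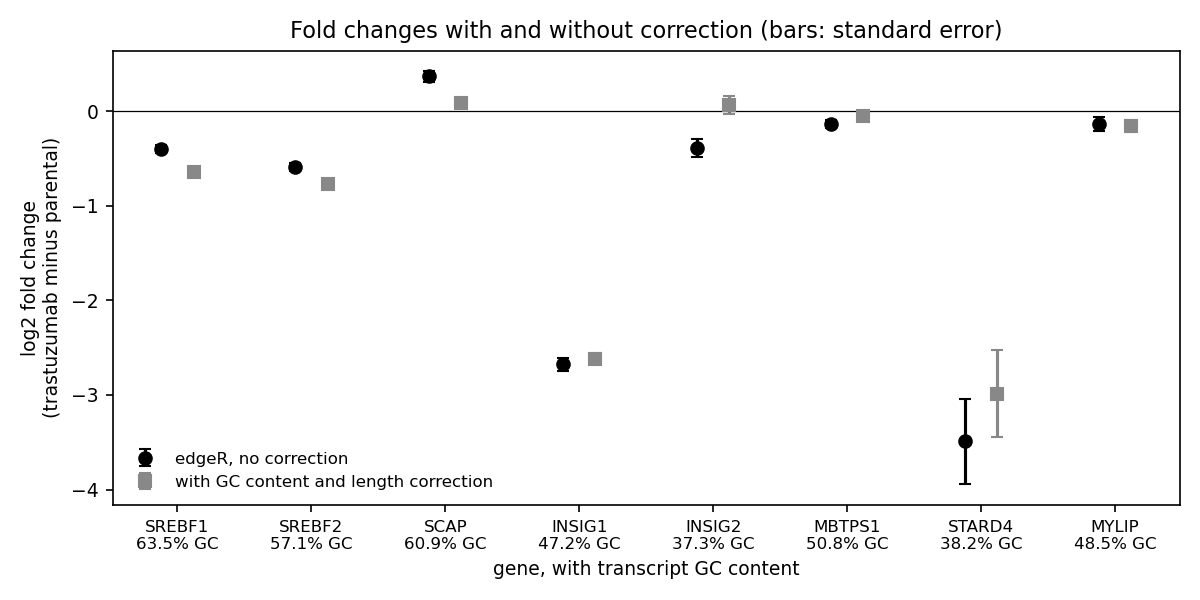
Log2 fold change (trastuzumab minus parental) of each gene with its standard error, from edgeR without correction (black circles) and with correction for GC content and length (grey squares), with the transcript GC content under each name. INSIG1, STARD4, SREBF2 and SREBF1 lie below 0 and are called in both. MYLIP also lies below 0 in both but is called in neither, while SCAP, INSIG2 and MBTPS1 come close to 0 with correction.

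The order of the members per unit of length also changed. In parental libraries the mean FPKM was 74.2 ± 2.69 for SREBF1, 44.3 ± 0.784 for SREBF2, 28.9 ± 1.6 for INSIG1, 14.2 ± 0.82 for SCAP, 11.3 ± 0.592 for MYLIP, 11.3 ± 0.191 for MBTPS1, 3.74 ± 0.145 for INSIG2 and 2.87 ± 0.429 for STARD4 (SD, n = 3). In trastuzumab libraries it was 53.5 ± 0.723 for SREBF1, 28.0 ± 0.775 for SREBF2, 17.5 ± 0.2 for SCAP, 9.82 ± 0.596 for MYLIP, 9.78 ± 0.335 for MBTPS1, 4.31 ± 0.408 for INSIG1, 2.73 ± 0.146 for INSIG2 and 0.237 ± 0.132 for STARD4. INSIG1 went from the third place to the sixth, below SCAP, MYLIP and MBTPS1. MYLIP and MBTPS1 overlapped in both groups, and no other neighbours in either order did.

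Some genes outside the list had profiles over the 6 libraries close to those of members, by the Euclidean distance between log2 CPM values centred on each gene's mean, among 9002 candidates of at least 10 CPM. Nearest to INSIG1 were the efflux transporter ABCG2 (distance 0.167, from 19.8 to 3.19 CPM), the stearoyl-CoA desaturase SCD (0.232) and the natriuretic peptide clearance receptor NPR3 (0.326), against a spread of 3.29 of the INSIG1 profile itself. Nearest to SREBF2 were the mitochondrial citrate carrier SLC25A1 (0.0352, from 149 to 97.3 CPM), the gap junction gene GJA5 (0.0752) and the protease FURIN (0.0798). Around STARD4 no gene came as close, the nearest being the imprinted RNA H19 (1.25), the proteoglycan GPC6 (1.37) and SCD (1.62). For SREBF1 they were GPATCH8 (0.0461), GOLGA7 (0.0562) and MTMR12 (0.0707), and for SCAP they were CCAR2 (0.0296), CTDNEP1 (0.0342) and WDR6 (0.037). INSIG2 was nearest to PARVA, EXOC1 and FAF1 (0.0589 to 0.0672), and MBTPS1 to HDLBP, PTPRA and KHDRBS1 (0.0476 to 0.0552). With 2 groups of 3, such distances reflect mainly the size of the group difference.

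The counts for each further gene list are to be read beside the shares of all tested genes, 25.4% lower and 23.9% higher, or 19.0% and 18.3% in the corrected fit. Among other proteins that act on SREBP processing 5 of 13 were lower, 3 higher and 5 not past the test (median -0.15), and 2 were lower and 4 higher in the corrected fit. The 3 higher, and the 2 lower with correction, are near the share of all genes. MBTPS2, the site-2 protease that makes the second cut after MBTPS1, fell from 37.8 ± 1.76 to 23.3 ± 2.44 CPM but did not pass in the corrected fit (-0.17, adjusted p = 0.08). PAQR3, which tethers SCAP and SREBP to the Golgi, fell from 17.6 ± 3.51 to 8.21 ± 0.331 CPM in both fits. UBXN8 fell from 6.07 ± 0.643 to 3.99 ± 0.245 CPM (corrected adjusted p = 0.057), and the ubiquitin ligase TRIM21 rose from 10.5 ± 0.235 to 15.8 ± 1.74 CPM. The COPII coat, on which SCAP leaves the endoplasmic reticulum, had 7 of 11 genes lower and none higher (median -0.45), and 7 lower and 1 higher with correction (median -0.13). Its cargo adaptor SEC24D fell from 101 ± 1.89 to 49.99 ± 4.2 CPM, SEC24B from 72.8 ± 2.90 to 38.3 ± 4.47 CPM, SEC24A from 34.7 ± 3.36 to 19.5 ± 1.68 CPM and the GTPase SAR1B from 37.9 ± 3.35 to 21.4 ± 1.61 CPM. Their log2 fold changes, in that order, were -1.02, -0.93, -0.83 and -0.82, and with correction -0.64, -0.69, -0.37 and -0.30. The 1 gene higher with correction was SAR1A (0.31, edgeR adjusted p = 6.29e-06), which did not pass without it (-0.11). Among other substrates of the MBTPS1 protease 4 of 7 tested genes were higher and 3 lower (median 0.38, or 0.065 with 3 higher and 2 lower in the corrected fit). ATF6, a sensor of unfolded proteins, changed direction between the fits, from -0.19 (edgeR adjusted p = 0.0176) to 0.26 (adjusted p = 0.000676), and ATF6B and CREB3 were higher without correction only. CREB3L4 rose from 89.6 ± 1.19 to 147 ± 7.69 CPM and CREB3L1 from 0.911 ± 0.234 to 2.36 ± 0.427 CPM, while GNPTAB, which encodes part of the enzyme that tags lysosomal proteins, fell from 65.8 ± 4.02 to 30.8 ± 0.906 CPM and CREB3L2 from 185 ± 4.28 to 126 ± 4.05 CPM.

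Most of the listed genes of cholesterol synthesis and lipogenesis, which SREBPs are known to drive, fell. Of 19 cholesterol synthesis enzymes 16 fell and 3 rose (median -1.03), or 15 and 2 in the corrected fit (median -0.995). MSMO1 (-1.86 ± 0.072), HMGCS1 (-1.59 ± 0.065), IDI1 (-1.43 ± 0.061) and SQLE (-1.32 ± 0.049) showed the largest of these falls without correction. In the corrected fit MSMO1 (-1.47) was followed by MVK (-1.44), MVD (-1.39) and DHCR7 (-1.32), ahead of HMGCS1 (-1.25). The 250-base promoter table matched 15 of these enzymes, and CCAAT lay in 15 of their 20 windows. CACGTG lay in 2 of these windows, near its share of tested protein-coding genes, and TCACNCCAC in 0. Of 15 lipogenic genes that SREBP-1 drives, 13 fell and none rose (median -0.96), or 14 in the corrected fit (median -0.82). FADS2 (-5.72 ± 0.73) and PNPLA3 (-2.99 ± 0.18) fell, as did THRSP (-2.81 ± 0.17) and SCD (-2.77 ± 0.048). All 4 point estimates lie below that of INSIG1, a difference that was not tested. Sterol uptake genes were mixed, with 5 calls lower and 3 higher among 11 tested, the same counts as in the corrected fit (median -0.12, or -0.15 with correction). Without correction the 3 higher calls are near the share of all genes (23.9%). TMEM97 fell from 78.8 ± 4.41 to 49.96 ± 2.01 CPM, the lysosomal lipase LIPA from 85.2 ± 2.27 to 56.3 ± 3.10 CPM and the apolipoprotein E receptor LRP8 from 206 ± 11.9 to 140 ± 2.97 CPM, while NPC2, which hands on cholesterol in lysosomes, rose from 38.3 ± 1.64 to 53.1 ± 0.639 CPM.

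Sterol transfer proteins other than STARD4 had calls of 5 higher and 3 lower among 10 tested and 2 without a call (median 0.14), or 6 and 2 with correction (median 0.19). The lower calls are near the share of all genes in both fits (25.4% and 19.0%), and the higher calls stand beside 23.9% and 18.3%. STARD5, of the same subfamily, stood at 3.03 ± 0.504 and 2.46 ± 0.582 CPM and did not pass (edgeR adjusted p = 0.305), and STARD6 had 0 counts in all libraries. STARD3, an amplicon neighbour of ERBB2, rose from 534 ± 21.8 to 758 ± 12.6 CPM. The Aster gene GRAMD1A rose from 12.7 ± 1.52 to 20.5 ± 2.24 CPM and GRAMD1B from 4.94 ± 0.163 to 7.26 ± 1.42 CPM, and the oxysterol-binding OSBPL1A fell from 38.4 ± 2.82 to 25.2 ± 0.242 CPM.

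Among LXR receptors and targets, calls were 7 higher and 4 lower among 13 tested, and 2 had no call (median 0.29), or 4 and 3 with correction (median 0.097). Lower calls were near the share of all genes in both fits (25.4% and 19.0%), and higher calls stand beside 23.9% and 18.3%. The lipid transfer gene PLTP changed direction between the fits, from 0.25 (edgeR adjusted p = 0.00239) to -0.14 (adjusted p = 0.0376). The receptors NR1H3 and NR1H2 rose from 5.23 ± 0.527 to 10.9 ± 0.94 CPM and from 74.8 ± 2.04 to 120 ± 3.50 CPM, in both fits. The exporter ABCA1, an LXR target as MYLIP is, fell from 5.62 ± 0.69 to 3.68 ± 0.594 CPM without correction only (corrected adjusted p = 0.157), and ABCA7 fell from 7.68 ± 2.59 to 4.71 ± 0.331 CPM. Among 5 tested genes of other proteins with a sterol-sensing domain, the kind of domain by which SCAP senses sterols, only the Hedgehog receptor PTCH1 changed, from 10.2 ± 0.889 to 5.53 ± 0.986 CPM (median of the 5, 0.72, or 0.52 with correction). The other 4 did not pass, and 4 more were not tested because they missed the filter on low counts.

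**Figure D4:**
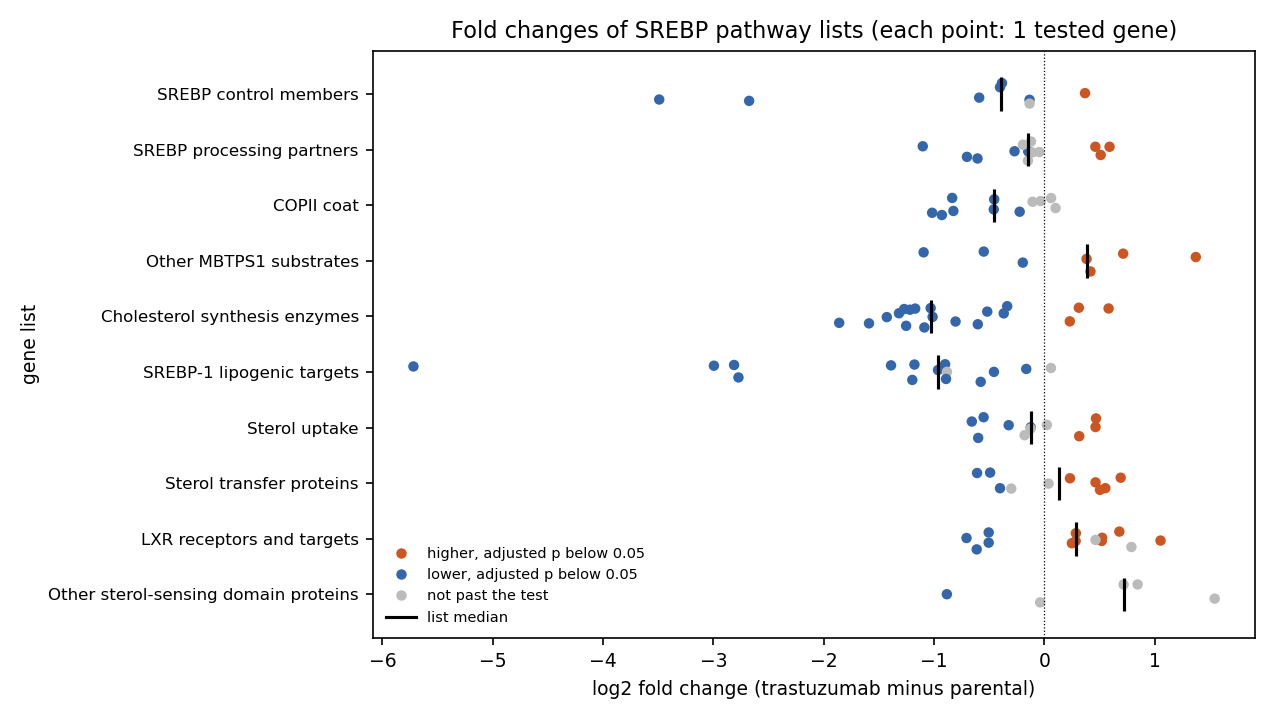
Log2 fold change (trastuzumab minus parental) of each tested gene of 10 lists, with blue for lower, orange for higher and grey for not past the edgeR test, a black bar at each list's median and a dotted line at the median of all tested genes. The medians of cholesterol synthesis enzymes (-1.03) and SREBP-1 lipogenic genes (-0.96) lie farther below 0 than that of the 8 members (-0.39), whose INSIG1 and STARD4 lie apart from the other 6.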

How the data were processed

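The authors' deposited values are raw counts (whole numbers per gene and library) and FPKM, that is values relative to gene length and depth, with 2 decimals. The hg38 build and the aligner STAR 2.4.2a come from the submitters' processing notes. No source used here gives the counting program, its strand setting or the annotation. RNA was column-purified and made into directional libraries, per the labels' protocols.

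The main test was the robust quasi-likelihood test of edgeR 4.0.16 (R 4.3.3) on the counts, with filterByExpr, TMM factors, no covariate and Benjamini-Hochberg adjustment over 17854 genes. The corrected fit used offsets from splines (5 degrees of freedom each) on GC content and exonic length from GENCODE 29. Levels between genes were compared on the deposited FPKM, without correction for GC content. Ratios had exact permutation tests. Symbols came from a gene name table, which named 60401 of 60612 identifiers. Alternatives used DESeq2 1.42.0 and limma 3.58.1 among others. The scripts were tested on simulated counts.

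The members, 9 further lists, 8 marker lists and the naming rule were chosen with earlier results of these data known. The rule names every member, up to 4 changed genes of at least 1 CPM per list with the largest change, and the 3 nearest profiles of each changed member. Genes overlapping a member are also named. STARD5, STARD6, SAR1A, ATF6, ATF6B, CREB3, MVK, MVD, DHCR7, PLTP and single marker genes lie outside the rule and were chosen after their values were seen. A gene of the sterol uptake list is not reported here and was left out of its counts.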

Additional observations from a re-analysis of the deposited data

How the results depend on the processing

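INSIG1, STARD4, SREBF1 and SREBF2 kept their direction and call under all 18 alternatives each, and the 3 ratios kept their direction under all 10. None of these 10 used the correction for GC content and length. The paired sign flips among them reuse the same ratio, so that setting could not have changed its direction. The log2 fold change of STARD4 ranged from -4.01 (without trastuzumab replicate 2) to -1.64 on log2(FPKM + 1), where the pseudocount shrinks low levels. Correction for GC content and length left SCAP at 0.088 (adjusted p = 0.15), turned INSIG2 to 0.068 and left MBTPS1 at -0.047, so that 0 members were higher. With the replicate block as well these values were 0.089, 0.072, -0.047 and 0. MBTPS1 also lost its call with upper-quartile factors (-0.081), with DESeq2 (-0.11, adjusted p = 0.0505) and without parental replicate 2, trastuzumab replicate 1 or trastuzumab replicate 2 (-0.13 to -0.11), while fits that left out 1 library ranged from -0.16 to -0.11. MYLIP passed with library totals alone (-0.19, adjusted p = 0.0429) and by limma on log2(FPKM + 1) (-0.19) and log2(FPKM + 0.1) (-0.20). The replicate block alone changed no member's call (INSIG1 at -2.68, STARD4 at -3.58). Same-numbered libraries deviated together only weakly (correlations of 0.021, 0.0764 and 0.113 over genes), although each library correlated best with its own number. Beside the corrected counts given above, lower processing partners went from 5 to 8 by limma on log2(FPKM + 1). Lower LXR genes went from 4 to 2 on filtered FPKM and with the block and correction, and to 1 on unfiltered FPKM. Higher COPII genes went from 0 to 2 with upper-quartile factors and to 1 without parental replicate 3, higher cholesterol enzymes from 3 to 1 with block and correction, and the 1 lower sterol-sensing gene to 0 on filtered FPKM. Lowest precision was that of STARD4, with 58 to 207 counts per trastuzumab library.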
